A study of Mus musculus with 3 samples.

Results

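The transcripts of 10 DNA replication licensing factors were followed in RNA immunoprecipitation sequencing (RIP-seq) of YTHDF2 in mouse embryonic stem cells (ESCs). They were Mcm2, Mcm3, Mcm4, Mcm5, Mcm6, Mcm7, Orc1, Cdc6, Cdt1 and Gmnn, taken by gene symbol from a table of 49997 genes. All 10 passed the filter on low counts, which left 19601 genes for testing. The cells were of the E14 line, treated with doxycycline (Dox) for 24 h, and the study describes a system with a Dox-inducible Dux transgene and a tdTomato reporter driven by the Mervl promoter. There was 1 input library and 2 libraries of RNA recovered with an anti-YTHDF2 antibody, called YTHDF2 IP replicates 1 and 2, and all 3 shared line, transgenes and Dox treatment. An IP with a control antibody and cells without Dox were not analysed here. Whether the IP libraries came from separate cultures is not given in the labels, so p-values measure only the spread between these 2 libraries, which may be technical.

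Origin licensing is the step in G1 phase in which the replicative helicase is placed on DNA. The origin recognition complex, of which ORC1 is a subunit, binds the origin and, with CDC6 and CDT1, loads the ring of MCM2 to MCM7 proteins. Geminin, the product of Gmnn, binds CDT1 and blocks loading again until the next cycle. YTHDF2 binds RNA that carries N6-methyladenosine (m6A) and promotes its decay, and ESCs are known for rapid cycles with a short G1 phase.

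The libraries held 35259827 to 36986994 counts, and a count of 3, taken as the floor, was 0.0811 to 0.0851 CPM (counts scaled to library size). The ESC identity was checked with 10 markers, Pou5f1, Nanog and Sox2 among them, and all 10 lay between 85.8 and 1889 CPM in the input. Their sum was 8902 CPM in the input against 8910 and 8896 CPM in IP replicates 1 and 2. Of 9 fibroblast markers, Col3a1 and Dcn were at 0 counts in all 3 libraries, and Col1a2, Postn and Lum had 0 to 7. The sum was 712 CPM in the input and 378 and 393 CPM in IP, of which Fn1 made up 674 CPM in the input. Of the others, Thy1 had 994 input counts against 498 and 543 in IP, Col1a1 had 75 against 57 and 62, and Pdgfrb, with 251 against 749 and 623, was enriched 2.66-fold. The summed markers of endoderm (12.8 to 20.3 CPM), mesoderm (28.3 to 55.1 CPM) and neural cells (18.3 to 43.0 CPM) stayed far under those of ESCs.

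In YTHDF2 IP compared with input, Cdt1 stood apart from the other 9 licensing factors. Cdt1 was enriched 2.18-fold, while Mcm2, Mcm4 and Mcm6 were depleted 2.76-fold to 3.16-fold, and the other 6 were lower by 1.28-fold to 1.56-fold. The call of Cdt1 was lost with the trend on GC content taken out, at a log2 fold change of 0.63, and with a dispersion set to 0.1, at an edgeR adjusted p-value of 0.18, while those of the 3 Mcm transcripts were kept. A gene was called enriched or depleted at a fold change over 2 and an adjusted p-value under 0.05 (edgeR quasi-likelihood test, Benjamini-Hochberg adjusted). At these thresholds 1 member was enriched, against 15.0% of all genes tested, and 3 were depleted, against 13.0% of all genes. At any fold, 1 member was higher, against 28.4% of all genes, and 9 were lower, against 28.9% of all genes. The members were abundant, and among the 3343 genes with a mean level at least as high as the lowest of them, 45.4% were higher and 43.5% were lower. The median log2 fold change was −0.58 over the members and 0.0063 over all genes, and with the trend on exon density described below taken out, −0.31 and 0.096. Scaling to TPM, in which counts are divided by exonic length before library size, raised the median of all genes to 0.16 and the enriched share of all calls from 53.6% to 64.0%, and the calls of the 10 members stayed as they were. In bulk libraries, more bound RNA per cell and more cells with bound RNA cannot be told apart.

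**Figure D1:**
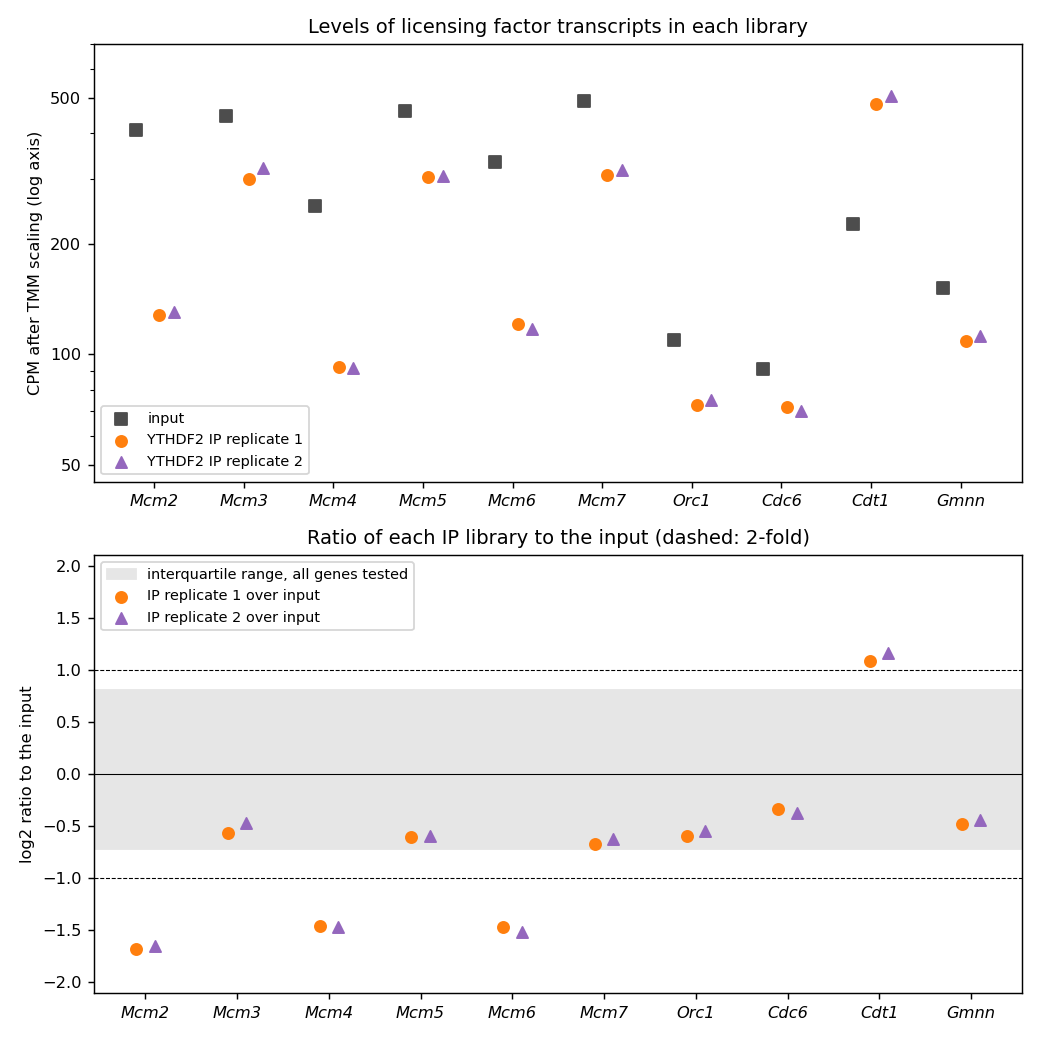
Top, level of each licensing factor transcript in CPM after TMM scaling (log axis) in the input (squares) and in YTHDF2 IP replicates 1 (circles) and 2 (triangles); bottom, log2 ratio of each IP library to the input, with the interquartile range of all genes tested in grey. Cdt1 lies above 1 in both IP libraries, Mcm2, Mcm4 and Mcm6 lie below −1, and the other 6 lie between −0.67 and −0.34.

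m6A lies in a short sequence context, of which GGACU is among the most common forms, and it is found most often around stop codons and in long exons. The letters GGACT, the DNA form of that motif, were therefore searched on the transcript strand of 1 RefSeq mRNA per member, in the GRCm38.p6 assembly that mm10 corresponds to. The 21-base windows below hold the motif of the enriched Cdt1 in its last exon, the motif nearest to the stop codon in each of the 3 depleted Mcm transcripts, and that of Mcm5, which lies as far from its stop codon as the motif of Cdt1. Each is written 5′ to 3′ in DNA letters with the motif in capitals.
Cdt1, coding sequence, chr8:122572529-122572549, plus strand: ttgctgccGGACTggctcagc
Cdt1, 3′ UTR, chr8:122572957-122572977, plus strand: cagaccttGGACTttcctgat
Mcm5, coding sequence, chr8:75126341-75126361, plus strand: attgtccaGGACTtcaccaaa
Mcm2, 3′ UTR, chr6:88883687-88883707, minus strand: gtgtttctGGACTgttttgtt
Mcm4, 3′ UTR, chr16:15624650-15624670, minus strand: tggccctcGGACTagagtcac
Mcm6, 5′ UTR, chr1:128359606-128359626, minus strand: gcagctgcGGACTctcctccg

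The Cdt1 mRNA of 2191 bases held 4 GGACT motifs, 3 in the coding sequence and 1 in the 3′ UTR. Distances were measured from the A of the motif to the first base of the stop codon. The coding motif shown above lies 113 bases before the stop codon, in exon 10, which is the last exon and has 637 bases. The 3′ UTR motif lies 315 bases after the stop codon in the same exon. In Mcm5, which was lower in IP, the motif shown lies at the same distance of 113 bases before the stop codon, in exon 16, ahead of the exon with the stop codon. The motif in Mcm4, a depleted transcript, lies 19 bases after its stop codon. Whether the number or place of motifs goes with the level in IP was not tested.

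**Figure D2:**
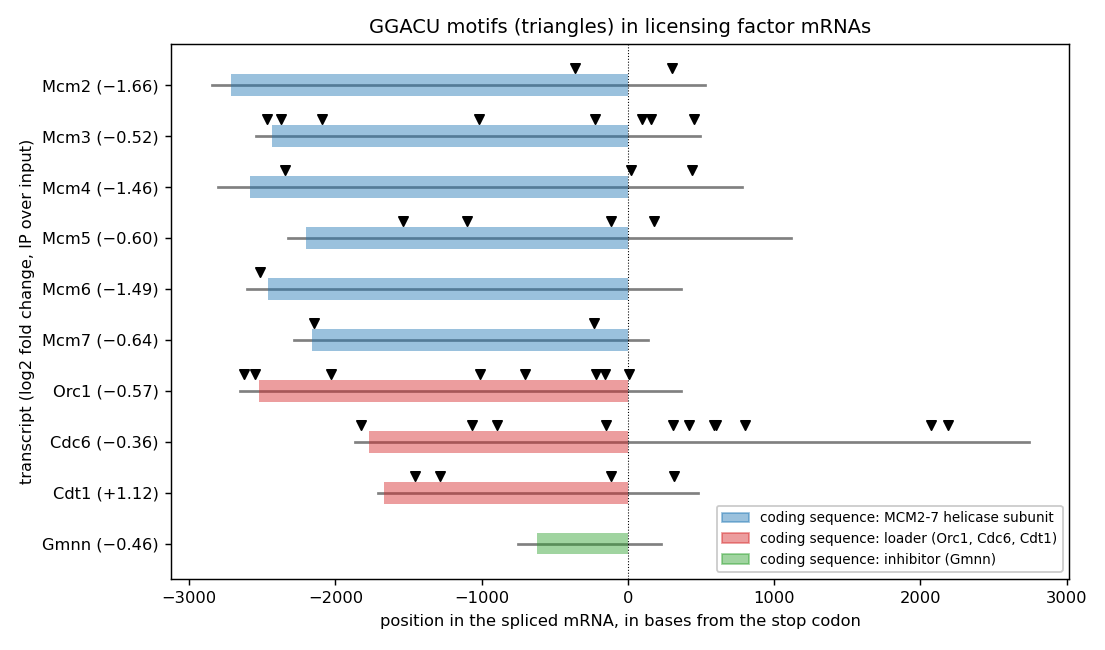
Maps of 1 RefSeq mRNA per licensing factor, aligned at the stop codon (position 0, in bases along the spliced mRNA), with the coding sequence as a box, untranslated regions as lines and GGACU motifs as triangles; the log2 fold change of IP over input is given beside each name. In these mRNAs the enriched Cdt1 carries 4 motifs, the depleted Mcm2, Mcm4 and Mcm6 carry 2, 3 and 1, and Cdc6, lower in IP, carries 11. Over merged exons of all isoforms, Mcm6 holds 4 and Cdt1 holds 3.

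Over the other members the number of motifs ran from 0 in Gmnn to 11 in Cdc6, of which 7 lay in its 3′ UTR of 2737 bases. Mcm3 and Orc1 held 8 each, and the Orc1 motif nearest to the stop codon lies 6 bases after it. Mcm7 held 2, both in the coding sequence. Over merged exons of all isoforms, Mcm6 held 4 motifs in 4431 bases and Cdt1 held 3 in 2191. On the same basis the density of the motif had a median of 1.04 per kb in the members and 1.01 per kb in all genes with a sequence. Of 1457 genes with an exonic length within 10% of that of Cdt1, 91.4% held at least 1 GGACT, and of 825 genes within 10% of the length of Gmnn, 31.0% held none. A match describes the letters of the transcript, and m6A was not measured in these libraries.

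Among the loaders, Cdt1 brings the MCM ring to the origin, and it is the protein that geminin inhibits. Cdt1 (chromosome 8, 122568015 to 122573130, plus strand) was counted 7994 times in the input, against 17329 and 18482 times in IP replicates 1 and 2. These are 226, 480 and 505 CPM, so both IP libraries lay above the input and close to each other. The replicates were 1.09 and 1.16 above the input on the log2 scale. The fitted log2 fold change was 1.12 ± 0.057 (SE, edgeR adjusted p-value 2.65e-19), and 82.0% of all genes had a lower one. No other member of the list lay above the input in either IP library.

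Cdt1 also changed its place among the licensing transcripts. In TPM, a per-length scale on which different genes can be compared, Cdt1 had 210 in the input, the sixth highest of the 10. In IP it had 508 ± 16.0 TPM (SD, n = 2), the highest of the 10, and the next was Mcm3 with 232 ± 10.1 TPM. Per length of 1 RefSeq mRNA, an alternative chosen after seeing the data, Cdt1 was at rank 7 in the input and at rank 1 in both IP libraries. Of all counts on the 10 members, Cdt1 took 7.61% in the input against 24.2% and 24.7% in IP replicates 1 and 2.

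Cdc6, the ATPase that joins the origin recognition complex before the helicase is loaded, and Orc1, the largest subunit of that complex, were both slightly lower in IP. Cdc6 (chromosome 11, 98907709 to 98923942, plus strand) gave 3217 input counts against 2594 and 2574 in IP, or 91.0, 71.9 and 70.3 CPM. At −0.36 ± 0.076 (SE, edgeR adjusted p-value 0.000104), its log2 fold change was the smallest of the 10 in size. Orc1 (chromosome 4, 108575705 to 108616030, plus strand) gave 3874 input counts against 2625 and 2752 in IP, or 110, 72.7 and 75.2 CPM. Its log2 fold change was −0.57 ± 0.073 (SE, edgeR adjusted p-value 1.62e-08), and −0.098 with the trend on GC content taken out (adjusted p-value 0.274). At a dispersion set to 0.1, the edgeR adjusted p-values were 0.711 for Cdc6 and 0.517 for Orc1. Both IP libraries lay under the input for both genes. They were also the least abundant members per length, with 36.2 TPM for Cdc6 and 27.4 TPM for Orc1 in the input, and per length of 1 RefSeq mRNA Cdc6 was the lower of the pair.

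Gmnn, which encodes the inhibitor of CDT1, was lower in IP, a direction that was not kept with the trend on exon density taken out (0.044, edgeR adjusted p-value 0.605). Gmnn (chromosome 13, 24751845 to 24761937, minus strand) gave 5362 input counts against 3918 and 4100 in IP, or 152, 109 and 112 CPM. The log2 fold change was −0.46 ± 0.066 (SE, edgeR adjusted p-value 1.44e-07). The level of Cdt1 over that of Gmnn, both in TPM, was 0.788 in the input against 2.34 and 2.38 in IP replicates 1 and 2, and per length of 1 RefSeq mRNA 0.665 against 1.97 and 2.01. The transcript of the target was thus the less abundant of the pair in the input and the more abundant in both IP libraries.

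The helicase subunits were all lower in IP, by 1.43-fold to 3.16-fold. Summed over Mcm2 to Mcm7, the level was 2393 CPM in the input against 1254 and 1285 CPM in IP replicates 1 and 2. None of the 6 was above the input in either IP library, and in all genes tested 45.3% were below the input in both. The median log2 fold change over the 6 was −1.05, and the members fell into 2 sets with no value between −1.46 and −0.64. The sets were seen in these values and the difference between them was not tested.

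Mcm2, whose protein also binds histones, was the most depleted member. Mcm2 (chromosome 6, 88883474 to 88898780, minus strand) gave 14469 input counts against 4614 and 4789 in IP, or 409, 128 and 131 CPM. It was depleted 3.16-fold, or −1.66 ± 0.057 on the log2 scale (SE, edgeR adjusted p-value 1.24e-24). Both IP libraries held less than 1 in 3 of the input level, and 7.07% of all genes had a lower log2 fold change.

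Mcm4 and Mcm6 encode neighbouring subunits of the ring, with tails that the CDC7 kinase phosphorylates when origins fire. Mcm4 (chromosome 16, 15623897 to 15637400, minus strand) gave 8987 input counts against 3339 and 3356 in IP, or 254, 92.5 and 91.6 CPM. Its depletion was 2.76-fold, or −1.46 ± 0.062 on the log2 scale (SE, edgeR adjusted p-value 6.74e-22). Mcm6 (chromosome 1, 128331575 to 128359705, minus strand) gave 11823 input counts against 4358 and 4292 in IP, or 334, 121 and 117 CPM. Its depletion was 2.81-fold, or −1.49 ± 0.059 on the log2 scale (SE, edgeR adjusted p-value 9.69e-23). The log2 ratios of single IP libraries overlapped between Mcm4 and Mcm6, so their order was not resolved, while those of Mcm2 lay below both.

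Mcm3, Mcm5 and Mcm7, the other 3 subunits of the ring, were lower in IP without passing the fold threshold. Mcm3 (chromosome 1, 20802966 to 20820312, minus strand) had 445 CPM in the input and 301 and 321 CPM in IP. Mcm5 (chromosome 8, 75109468 to 75128439, plus strand) had 461 CPM in the input and 304 and 306 CPM in IP. Mcm7 (chromosome 5, 138164583 to 138172111, minus strand) had 490 CPM in the input and 309 and 318 CPM in IP. For each of the 3, both IP libraries lay below the input and within 10% of each other. Their log2 fold changes were −0.52 ± 0.055, −0.60 ± 0.053 and −0.64 ± 0.053 (SE), with edgeR adjusted p-values of 2.05e-10, 1.67e-12 and 1.99e-13. The log2 ratios of single libraries of Mcm3 overlapped those of Orc1 and Gmnn, and those of Mcm5 and Mcm7 did not overlap each other.

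Because the subunits moved by different amounts, their levels were less even in IP than in the input. The highest of the 6 Mcm transcripts over the lowest, in TPM, was 2.18 in the input against 3.84 and 4.15 in IP replicates 1 and 2. Mcm4 was the lowest in all 3 libraries, with 144 TPM in the input and 58.0 ± 0.60 TPM in IP (SD, n = 2). Mcm7 was the highest in the input with 315 TPM. In IP, Mcm3 and Mcm7 were the highest and overlapped, at 232 ± 10.1 and 223 ± 3.84 TPM. These levels rest on the merged exons of all isoforms. Per length of the RefSeq mRNA, Mcm7 was above Mcm3 in all 3 libraries, and the highest over the lowest was 2.86 in the input against 4.94 and 5.14 in IP. The 3 depleted subunits were also the 3 with the lowest input levels, at 144 to 247 TPM, and the other 3 had 268 to 315 TPM.

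Exonic GC content was 58.7% in Cdt1, the highest of the 10 and above 93.2% of all genes with a sequence, and 43.4% in Orc1, the lowest. Over all genes, the log2 fold change rose with GC content, from a median of −0.62 below 44% to 0.48 at 56% and above, where Cdt1 lies and where 26.9% of genes were enriched. With that trend taken out, the log2 fold change of Cdt1 was 0.63 ± 0.056 (SE), still higher in IP with an adjusted p-value of 2.29e-12 in edgeR but under the 2-fold threshold. Mcm2 went against the trend. Its GC content of 55.5% lies in a range where 6.59% of genes were depleted and the median was 0.24, and with the trend taken out it had a log2 fold change of −1.93. Mcm4 and Mcm6, with 45.5% and 47.6% GC, lie in ranges where 18.0% and 14.5% of genes were depleted, and they kept log2 fold changes of −1.19 and −1.34 with the trend taken out.

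Over merged exons of all isoforms, exon density had a median of 4.66 exons per kb in the members and 2.37 in all genes. It ran from 2.21 in Orc1 to 6.91 in Gmnn. The RefSeq mRNA of Orc1 has 17 exons in 3014 bases, against 18 in 8141 merged bases. Over all genes the log2 fold change fell as exon density rose. Cdt1 has 4.56 exons per kb, in a range where 8.74% of genes were enriched and 15.5% were depleted, and its log2 fold change with that trend taken out was 1.40. Gmnn has 6.91 exons per kb, and genes with 6 or more had a median log2 fold change of −0.47, close to its own −0.46. With the trend taken out Gmnn was at 0.044, with an adjusted p-value of 0.605 in edgeR, while Mcm3 was at −0.13, Mcm5 at −0.29 and Mcm7 at −0.31. Over merged exons, the 3 depleted Mcm transcripts have 3.61 to 4.75 exons per kb and the other 3 have 4.86 to 5.61. In 1 RefSeq mRNA each, these sets were not kept apart, as Mcm6 has 17 exons in 2966 bases, Mcm3 17 in 3031 and Mcm5 17 in 3441.

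**Figure D3:**
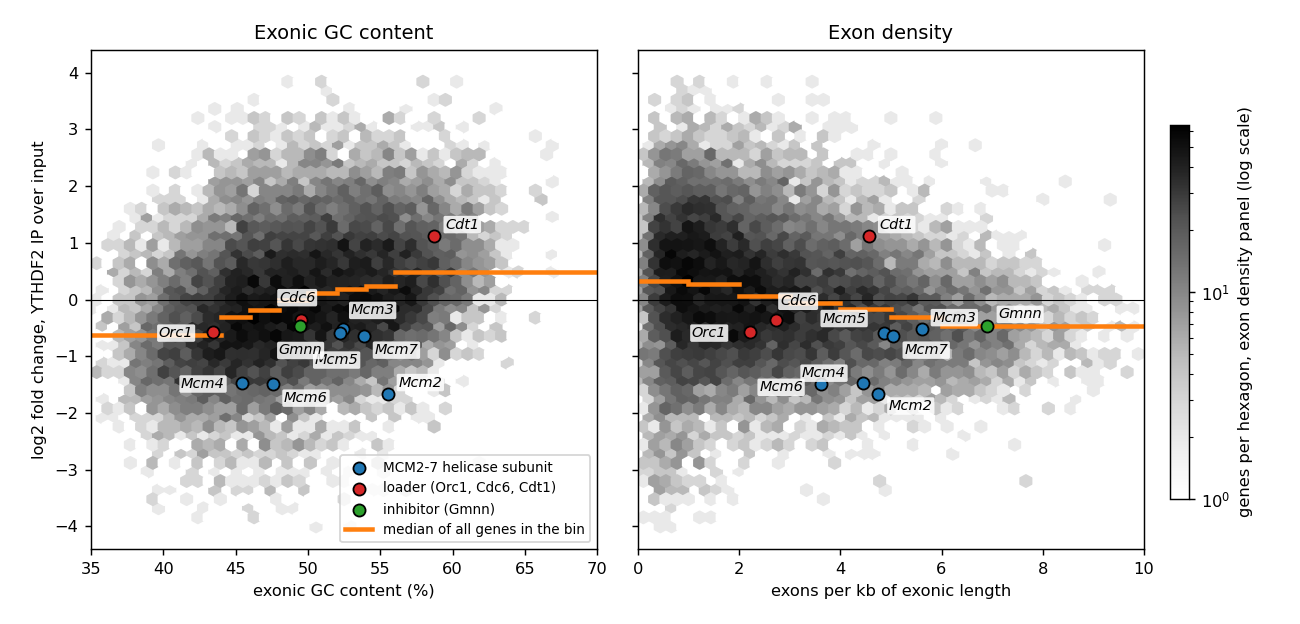
Log2 fold change of IP over input against exonic GC content (left, %) and exons per kb of exonic length (right) for all genes tested (grey hexagons, darker for more genes), with medians of bins as orange lines and the licensing factors as coloured points. Cdt1 lies above and Mcm2 far below the medians of their bins on either axis, while Gmnn and Orc1 lie near the median of one of them.

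Reads could be shared with other genes at few members. Exons of Mcm7 overlap Ap4m1 on the other strand over 91 bases, and those of Orc1 overlap Gm12743 on the other strand over 259 bases, which is 3.18% of its exonic length. The Mcm7 mRNA matched an intronless copy on chromosome 16, annotated as Gm5487, at 97.5% identity over 98.0% of its length, and that copy had 16, 15 and 7 counts. A stretch of Cdc6 with 56.0% of its mRNA matched Gm9430 on chromosome X, which had 2, 0 and 0 counts. Values of Mcm7 and Cdc6 are uncertain to the extent that reads fitting both places were left out. At 95% identity or more, Mcm5 and Gmnn matched elsewhere over 4.62% and 9.21% of their mRNAs, and no match was found for Cdt1, Mcm2, Mcm3, Mcm4, Mcm6 or Orc1.

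The wider replication machinery was read beside the members through 88 further genes in 6 lists, all of which were tested. Of these, 6 were enriched and 19 were depleted, against 15.0% and 13.0% of all genes. At any fold 23 of the 88 were higher and 57 were lower, against 28.4% and 28.9% of all genes. The shares were 45.4% and 43.5% of genes as abundant as the members, with a mean of at least 77.7 CPM. That set is not matched to the 88 genes, which include Orc4 at 31.9 and Pold4 at 0.79 CPM. With the trend on GC content taken out 3 of the 88 were enriched and 15 depleted, and at a dispersion set to 0.1 these were 1 and 9. The median log2 fold change of the 88 genes was −0.42, against −0.58 in the members. The median of each of the 6 lists lay below 0 as well, from −0.67 to −0.34.

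The other subunits of the origin recognition complex lay on either side of Orc1, from −1.43 to 0.41 in log2 fold change. Orc3 was depleted, with 2715 input counts against 971 and 1096 in IP and a log2 fold change of −1.43. Orc4 was depleted as well, with 1783 input counts against 802 and 839 in IP and a log2 fold change of −1.16. Orc2 was higher in IP, with a log2 fold change of 0.41, Orc5 was lower at −0.66, and Orc6 was at 0.11 with an adjusted p-value of 0.214 in edgeR. With Lrwd1, an ORC-associated protein, 2 of these 6 genes were depleted, against 13.0% of all genes. The others were not called, and the median was −0.67. Of 5 further MCM proteins, which are not part of the ring of licensing, 1 was depleted, against 13.0% of all genes. The others were not called, and the median was −0.42. The depleted one was Mcmdc2, named after its values were seen, with 205 input counts against 100 and 96 in IP. The calls of Orc3 and Orc4 were lost with the GC trend taken out, at −0.80 and −0.44.

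Helicase activation follows licensing, and the largest enrichment among all the replication genes was found there. Dbf4, the activating subunit of the CDC7 kinase that acts on the loaded MCM ring, had 7509 input counts against 29646 and 27980 in IP, and was enriched 3.73-fold. Gins3, a subunit of the GINS complex that joins the helicase, was enriched 2.66-fold, a call lost at a dispersion set to 0.1 (edgeR adjusted p-value 0.0865). Cdk2, the cyclin-dependent kinase of S phase entry, was depleted 4.56-fold. Ccna2, which encodes cyclin A2, was also depleted (log2 fold change −1.14), and it shares 11.2% of its exonic length with Exosc9 on the other strand. Ccna2 lost its call when the GC trend was taken out (−0.96), when counts were scaled to TPM (−0.99) and at a dispersion set to 0.1 (edgeR adjusted p-value 0.133). In that list of 18 genes 2 were enriched and 3 were depleted, against 15.0% and 13.0% of all genes, with a median of −0.34. The third depleted gene was Ccne2, named after its values were seen, with 285 input counts against 47 and 41 in IP and 52.3% of its exonic length shared with Ints8 on the other strand.

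Among the replisome genes, Pcna, the sliding clamp, had 18901 input counts against 4592 and 4693 in IP, and was depleted 4.19-fold. Top1, which relaxes DNA ahead of the fork, was depleted 4.14-fold, Rfc4 of the clamp loader 3.09-fold and Rpa1 of the single-strand binding protein 2.79-fold. Fen1, the flap endonuclease of Okazaki fragments, was the enriched gene of this list, at 2.23-fold. Fen1 lost its call with the GC trend (log2 fold change 0.93) or the exon density trend (0.97) taken out, and Rfc4 with the latter (−0.95). Rfc4 shares 13.2% of its exonic length with Eif4a2 on the other strand, which had 29980 input counts against 2034 for Rfc4, and Top1 shares 14.3% with Gm52567, which had 7. In all, 1 of these 30 genes was enriched and 7 were depleted, against 15.0% and 13.0% of all genes, and their median was −0.46.

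CDT1 is removed in S phase by the CUL4 and DDB1 ubiquitin ligase and by the SKP2 ligase, and some transcripts of these enzymes were depleted. Ddb1 had 22333 input counts against 7540 and 7759 in IP, and was depleted 3.00-fold. Cul4b was depleted 3.32-fold and Skp2 2.29-fold, the latter call being lost at a dispersion set to 0.1. With the GC trend taken out, Cul4b went from a log2 fold change of −1.73 to −1.06 and kept its call. Other parts of these ligases were not called, and they are named here after their values were seen. These were Dtl, the CDT1 receptor of the CUL4 ligase, with a log2 fold change of −0.22, Cul4a with −0.66, Rbx1 with −0.24 and Skp1 with −0.86. Ube2c, the ubiquitin-conjugating enzyme of the anaphase-promoting complex, which acts on geminin, was depleted 4.93-fold. Cul1, the scaffold of the SKP2 ligase, was enriched 2.06-fold, a call also lost at that dispersion (edgeR adjusted p-value 0.219). Over the 16 genes of this list 1 was enriched and 4 were depleted, against 15.0% and 13.0% of all genes, with a median of −0.54.

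The E2F factors drive transcription of Mcm genes, Cdc6, Cdt1 and Orc1 at the entry into S phase. E2f1 had 3340 input counts against 7958 and 8326 in IP and was enriched 2.37-fold, and E2f2 was enriched 2.15-fold. The other E2F genes were not called, and they are named here after their values were seen. E2f3 and E2f6 had log2 fold changes of 0.51 and 0.55, and E2f8 had 0.015. E2f4, E2f5 and E2f7 were lower in IP, at −0.90, −0.62 and −0.80. Of the pocket proteins, which restrain E2F, Rbl1 was depleted 2.34-fold and Rb1 2.21-fold. In this list of 13 genes 2 were enriched and 2 were depleted, against 15.0% and 13.0% of all genes, with a median of −0.62. The calls of all 4 were lost with the GC trend taken out. At a dispersion set to 0.1, Dbf4 was the enriched gene left in the 6 lists.

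**Figure D4:**
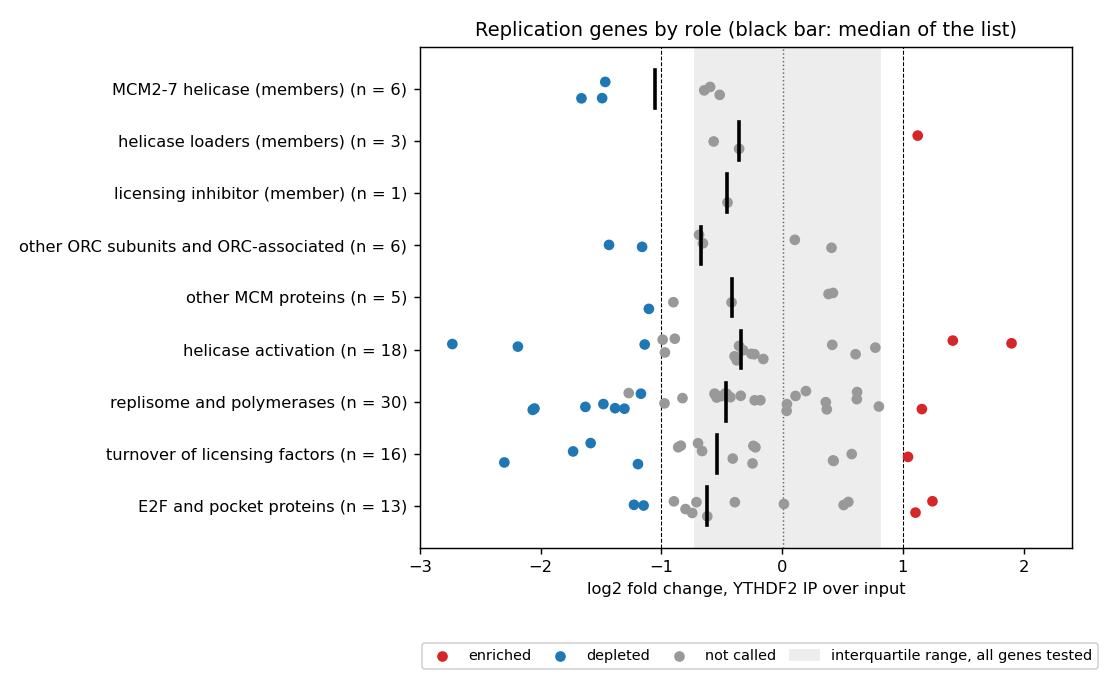
Log2 fold change of YTHDF2 IP over input for each replication gene, grouped by role (1 point per gene, black bar for the median of the list, dashed lines at 2-fold, grey band for the interquartile range of all genes tested). The medians of all 9 groups lie below 0, and Cdt1 is the enriched gene among the members, as Dbf4, Gins3, Fen1, Cul1, E2f1 and E2f2 are among the other lists.

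Across all replication genes including the members, the 7 enriched ones had a median GC content of 54.4%, and the medians were 43.8% over 21 of the 22 depleted ones and 49.3% over 67 of the 69 others, Skp2, Cdc45 and Pold4 having no GC value. Cdt1 had the highest GC content of the enriched genes and Mcm2, at 55.5%, the highest of the 21 depleted ones. The part of GC content in these calls beyond the values given was not tested.

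The direction of 9 of the 10 members was the same under every alternative tried, and Gmnn, which passed 0 with the exon density trend taken out, was the exception. Mcm2, Mcm4 and Mcm6 kept their depletion calls throughout. When the dispersion was set to 0.1 rather than estimated, the 3 depleted Mcm transcripts were the members with an edgeR adjusted p-value still under 0.05.

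**Figure D5:**
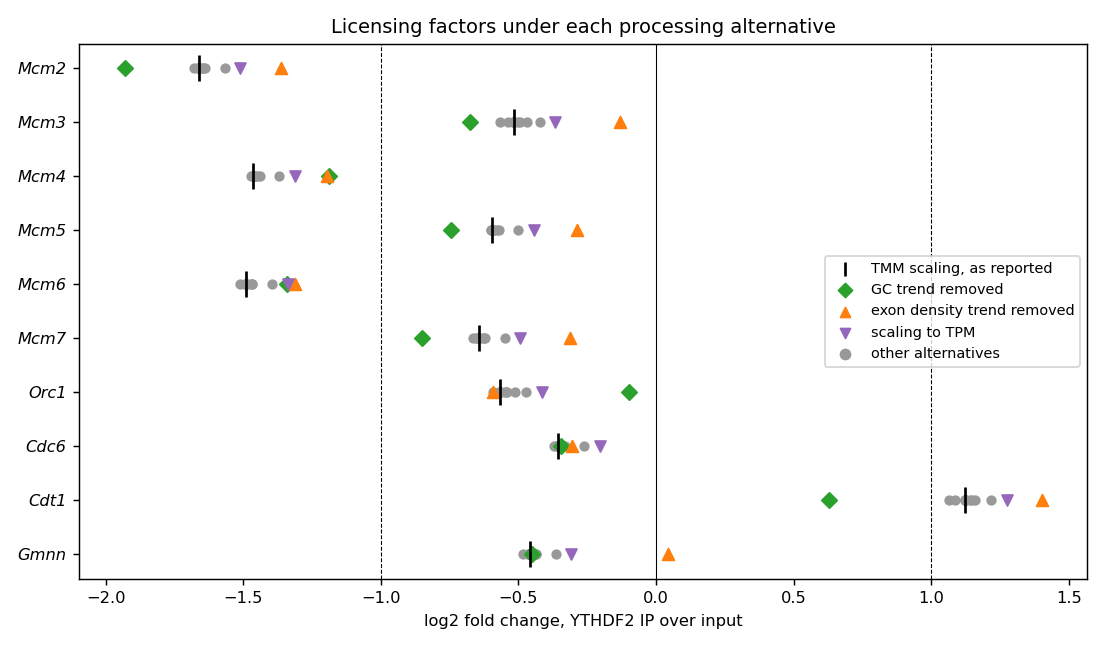
Log2 fold change of IP over input of each licensing factor under each processing alternative, with the reported value as a black bar, 3 alternatives marked by shape and colour, the rest in grey, and dashed lines at 2-fold. Mcm2, Mcm4 and Mcm6 stay below −1 throughout, Cdt1 runs from 0.63 to 1.40, and Gmnn runs from −0.48 to 0.04.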

How the data were processed

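RIP-seq libraries of E14 ESCs under Dox were grouped by sample title. The methods of the study describe IP from a cleared lysate, while the labels describe IP of Trizol-extracted total RNA. The authors deposited unnormalized read counts for each gene. Per the submitters' processing notes, fastp 0.19.4, HISAT2 2.2.1 and DESeq2 1.40.2 were used with mm10. Per the file headers, counts were made with featureCounts over RefSeq exons, ignoring strand and counting each mate of a pair, so sampling noise exceeds that of the counts. Duplicate removal is not given in the sources used here.

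In R 4.3.3 with edgeR 4.0.16, counts were filtered with filterByExpr and scaled by TMM (input factor 0.957, IP factors 1.02). The quasi-likelihood F test (robust, Benjamini-Hochberg over 19601 genes) has 1 residual degree of freedom, from the IP libraries. The common dispersion of 0.00538 equals a coefficient of variation of 7.33%. With counts halved, the IP libraries differed by a chi-square of 3.16 per gene against counting noise alone, and they were counted as 2 libraries. Library ratios used a pseudocount of 0.5, and the SE was taken from the F statistic. The test was run on simulated counts in which all 3 libraries had the common dispersion, so it could not examine separate variation of the single input. GC content and motifs came from the RefSeq GRCm38.p6 sequence, in which all 10 members had the same start and end as in the table. GC content was known for 18600 of the genes tested. Copies were sought with blastn 2.17.0 at 95% identity or more.

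The members and lists were chosen with earlier results of these data known. The named genes were the members, Orc2 to Orc6, and in each list up to 4 called genes per direction with the largest change and a mean of at least 10 CPM. Alternatives covered scaling, filter, tool, dispersion, halved counts, mitochondrial genes, trends with GC content, length and exon density, and each IP library left out. A fit without the robust option and levels per length of 1 RefSeq mRNA were added after seeing the data.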

Additional observations from a re-analysis of the deposited data

How the results depend on the processing

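No paired analysis was possible because the input carries no replicate number, so neither IP library has an input of its own. Of the 10 members, 3 were depleted under each alternative with a test, and 1 was enriched under each except a fixed dispersion and the GC trend taken out. With a fixed dispersion of 0.1, 0 members were enriched and 3 passed the adjusted p-value at any fold (edgeR), and in the wider lists 1 gene was enriched and 9 were depleted, while over all genes the calls were 1577 enriched and 1531 depleted against 2936 and 2543. With the GC trend taken out, 0 members were enriched, since Cdt1 had a log2 fold change of 0.63, 9 passed the adjusted p-value, Orc1 being lost, and in the wider lists 3 genes were enriched and 15 depleted. With the exon density trend taken out, 9 members passed the adjusted p-value, Gmnn turned to 0.044, and in the wider lists 7 genes were enriched and 13 depleted. Scaling to TPM left 6 and 16 in those lists, against 6 and 19 as reported. Of the other genes named, Orc3, Orc4, Rbl1, Rb1, E2f1, E2f2, Ccna2 and Fen1 lost their calls both with the fixed dispersion and with the GC trend taken out, Gins3, Skp2 and Cul1 with the former (Skp2 has no GC value, so the latter was not applied to it), Rbl1, Rb1, E2f2, Rfc4 and Fen1 with the exon density trend taken out, and Rb1 and Ccna2 under scaling to TPM. Over the alternatives with a test, the adjusted p-value of Cdt1 ran from 3.20e-68 to 0.18, that of Orc1 from 6.66e-11 to 0.517 and that of Gmnn from 2.65e-09 to 0.616. The cause of these changes was not tested.

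Leaving out either IP library gave 1 to 1 member above 2-fold and 3 to 3 below, and in the wider lists 6 to 6 above and 20 to 22 below, with no test. The log2 fold change of Cdt1 then ran from 1.09 to 1.16, that of Mcm2 from −1.68 to −1.65 and that of Gins3 was 1.41 in both. The DESeq2 Wald test, other scalings, the filter, halved counts, the length trend, the fit without the robust option and leaving out mitochondrial genes kept all 10 members on their side of both thresholds. With 1 input library, its own variation is not in any error given here.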
